A study of Mus musculus with 12 samples.

Results

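The 10 genes described here belong to the machinery by which a liver cell senses insulin, glucagon and adiponectin: Insr, Irs1, Irs2, Pik3r1, Akt1, Akt2, Trib3, Adipor1, Adipor2 and Gcgr. They were chosen by name, from a list of insulin receptor signaling genes, and all 10 were found among the 24062 genes of the count tables. Hepatic RNA of 12 mice, all female C57BL/6J, was compared by RNA-seq. All mice arrived at 6 weeks of age, were acclimated for 2 weeks, and ate the control diet for the last 3 days before the start. For 10 days, 6 mice were then kept on that control diet (mice 1 to 6) and 6 received the matched diet with BIBB-515 at 55 mg/kg body weight (mice 6 to 11). BIBB-515 inhibits lanosterol synthase, an enzyme of cholesterol synthesis, and the question addressed is how hepatic expression responds to this inhibition. The labels name no transgene or deletion, each library is labelled as a separate sample, and which of the 11 mice per group in the study were sequenced is not given in the sources used here. The same number 6 in both groups does not mark the same mouse, since each mouse ate 1 of the diets.

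Insulin binds its receptor tyrosine kinase, which phosphorylates docking proteins of the Irs family. These recruit the phosphoinositide kinase whose regulatory subunit Pik3r1 encodes, and the lipid it makes brings the kinase Akt to the membrane. In liver, active Akt keeps the transcription factor Foxo1 out of the nucleus, which lowers transcription of gluconeogenic genes, and favors glycogen and fatty acid synthesis. Trib3 is a pseudokinase known to bind Akt, and its transcription is known to respond to fasting and to stress signals through ATF4. Glucagon acts against insulin through its own receptor and cAMP, while adiponectin acts through Adipor1 and Adipor2 on AMPK and PPARα.

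The gene counts summed to between 22764819 and 31058370 per library, and the 10 genes together took between 0.134% and 0.172% of them. The share of reads on the 20 genes with the highest counts was 27.7% to 29.8% in control mice and 23.6% to 25.2% with BIBB-515. The labels give no sequencing batch. In control mouse 4 and BIBB-515 mouse 11 more of a gene's exon reads lay on its last exon, at the 3′ end, than in the other mice. Over 9539 genes with 3 or more exons and at least 100 reads in each mouse, the median share was 44.2% in control mouse 4 and 42.5% in BIBB-515 mouse 11, against 37.7% to 41.8% in the other control mice and 37.2% to 39.7% in the other BIBB-515 mice. Of the 10 genes, 7 had their highest last-exon share among control mice in mouse 4, and all 10 had their highest among BIBB-515 mice in mouse 11. The share of all genes that did so within each diet was not computed. Among all 12 mice, 48.6% of the 9539 genes had their highest share in control mouse 4 and 18.0% in BIBB-515 mouse 11. The part of this difference in the results was not tested, and values without these libraries are given beside them. The liver label was compared with marker genes. The 7 hepatocyte markers (Alb, Apoa1, Ttr, Hnf4a, Cps1, Trf and Serpina1a) summed to between 157318 and 176640 reads per 1000000 counted (CPM) in control mice and to between 117033 and 132059 with BIBB-515, and 3 of them, Ttr, Alb and Trf, passed the test as lower. None of the 5 cholangiocyte, 6 Kupffer cell, 5 endothelial or 4 tested leukocyte markers passed the test, and their sums overlapped between diets. The stellate cell markers summed to between 260.2 and 355 CPM in control mice and to between 247 and 305 with BIBB-515, and 2 of 5, Dcn and Lrat, were lower. The adipocyte and skeletal muscle markers summed to less than 1 CPM in each mouse, with Lep at 0 throughout. Of the pancreas markers Prss2, Pnlip and Amy2a2 were at 0 in all mice, while Cela1 was lower with BIBB-515. Of the red cell markers Hba-a1, Hbb-bs and Hbb-bt were at 0, while Alas2 was counted and did not pass the test. The counts leave out multi-mapping reads and reads on overlapping genes, so a 0 does not show that the RNA was absent. The red cell list summed to between 9.56 and 15.6 CPM in control mice and to between 9.28 and 13.5 with BIBB-515. The part of these marker differences in the results below was not tested. In bulk tissue, fewer cells of a type, less RNA per cell and a change in the single marker genes cannot be told apart.

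The 2 genes of this set that passed the test between diets were Trib3 and Pik3r1, and their promoter windows are shown because they are where those transcripts start. The windows hold the 250 bases before and the 50 bases after an annotated start site, from RefSeq on GRCm38.p6. Of the 10 genes, 9 matched this set of windows, with 15 windows in all, and Insr did not. Each sequence is written 5′ to 3′ on the gene's strand, which is the minus strand for both genes. Capitals mark the letters GGGCGG, the GC box, and TGACG, the core of a cAMP response element, found on either strand, so that CGTCA is TGACG on the opposite strand.
Trib3, chr2:152344011-152344310: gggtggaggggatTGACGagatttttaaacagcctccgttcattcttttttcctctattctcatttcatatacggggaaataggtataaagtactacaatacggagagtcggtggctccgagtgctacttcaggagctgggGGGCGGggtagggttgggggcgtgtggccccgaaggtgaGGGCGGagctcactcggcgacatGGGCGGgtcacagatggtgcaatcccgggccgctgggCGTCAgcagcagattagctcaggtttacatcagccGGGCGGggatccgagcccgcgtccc
Pik3r1, upstream start, chr13:101768168-101768467: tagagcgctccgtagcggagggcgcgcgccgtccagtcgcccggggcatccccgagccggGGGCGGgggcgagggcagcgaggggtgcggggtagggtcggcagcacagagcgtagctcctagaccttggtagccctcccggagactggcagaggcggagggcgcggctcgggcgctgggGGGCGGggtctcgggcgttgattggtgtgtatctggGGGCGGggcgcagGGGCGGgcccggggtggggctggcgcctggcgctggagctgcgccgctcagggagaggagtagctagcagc
Pik3r1, downstream start, chr13:101692581-101692880: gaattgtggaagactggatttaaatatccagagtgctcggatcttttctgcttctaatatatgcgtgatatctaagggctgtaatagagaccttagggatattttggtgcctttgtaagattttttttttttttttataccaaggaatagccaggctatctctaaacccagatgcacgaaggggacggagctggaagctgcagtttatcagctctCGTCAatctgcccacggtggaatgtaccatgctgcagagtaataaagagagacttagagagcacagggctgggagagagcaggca

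The Trib3 window held 4 GC boxes and 2 copies of TGACG, and its GC content was 58.3%. The upstream Pik3r1 window was 75.7% GC, with 34 CpG dinucleotides, 4 GC boxes and 1 CCAAT. The downstream Pik3r1 window, the start of a shorter transcript, was 43.7% GC with 6 CpG dinucleotides, 1 TGACG and no GC box. Among all 32817 windows of the same length, 35.6% held a GC box, 20.8% TGACG and 37.4% CCAAT, on either strand, and the median window was 52.7% GC with 7 CpG dinucleotides. The letters TGTTTAC (a Foxo site, in 3.65% of windows), TGACGTCA (the full cAMP response element, which contains TGACG, in 1.79%) and TGATGCAA (a composite site of ATF4, in 0.896%) did not occur in these 3 windows. Each match is a description of the letters only.

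**Figure D1:**
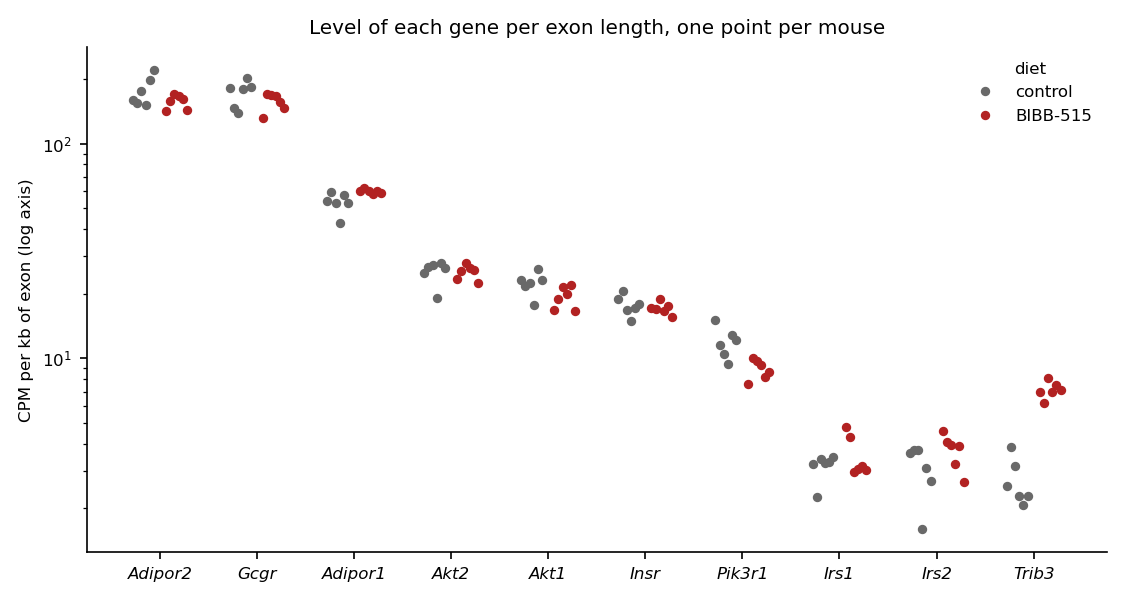
Level of each gene in CPM per kilobase of exon, on a log axis, with 1 point per mouse, control in gray and BIBB-515 in red, ordered by the control mean. Adipor2 and Gcgr lie at the top in both diets, and Trib3 lies with Irs1 and Irs2 in control mice and above them with BIBB-515.

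Levels of different genes were compared per kilobase of exon, as CPM scaled by the trimmed mean of M-values (TMM) and divided by exon length. In control mice the receptors Adipor2, at 177 ± 27.8 CPM per kb (SD, n = 6), and Gcgr, at 172 ± 24.6, were the highest, and their ranges overlapped. Of all tested genes, 96.7% were lower than Adipor2 and 96.6% lower than Gcgr. Adipor1 followed at 53.3 ± 5.98, apart from its neighbors on both sides. In the plot of levels per exon length these 3 receptors lie above the other 7 genes in each diet, with Adipor2 and Gcgr intermixed.

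The kinases and the insulin receptor formed the middle of the order in control mice. Akt2 stood at 25.3 ± 3.18 CPM per kb, Akt1 at 22.4 ± 2.69, Insr at 17.7 ± 1.94 and Pik3r1 at 11.9 ± 1.97 (SD, n = 6 each). Each of these overlapped in range with its neighbor in the order. The docking proteins Irs1, at 3.15 ± 0.453, and Irs2, at 3.08 ± 0.844, and the pseudokinase Trib3, at 2.70 ± 0.683, came last, with overlapping ranges below that of Pik3r1. With BIBB-515, Trib3 lay between 6.19 and 8.09 CPM per kb, above each mouse's value of Irs1 (2.94 to 4.77) and Irs2 (2.65 to 4.57), and its range overlapped that of Pik3r1 (7.59 to 9.99). These orders between genes are a description, and no test was made of them.

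Between diets, 2 of the 10 genes passed a false discovery rate (FDR) of 0.05 in edgeR's quasi-likelihood test, Trib3 as higher and Pik3r1 as lower. All 10 genes passed the filter on low counts, which asks for 1 CPM or more in 2 or more libraries. Over all 12481 genes tested, 1705 passed, or 13.7%, with 7.18% higher and 6.48% lower, so that 2 of 10 is close to the background for this number of genes. Groups that did not overlap were found for 1 of the 10, Trib3, against 7.07% of all tested genes. An unadjusted p under 0.05 was found for 4 of the 10 (Trib3, Pik3r1, Adipor1 and Akt1) and for 29.7% of all tested genes. The median log2 fold change was -0.03 over the 10 genes and -0.01 over all genes, and the median absolute log2 fold change was 0.17 and 0.14, respectively.

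**Figure D2:**
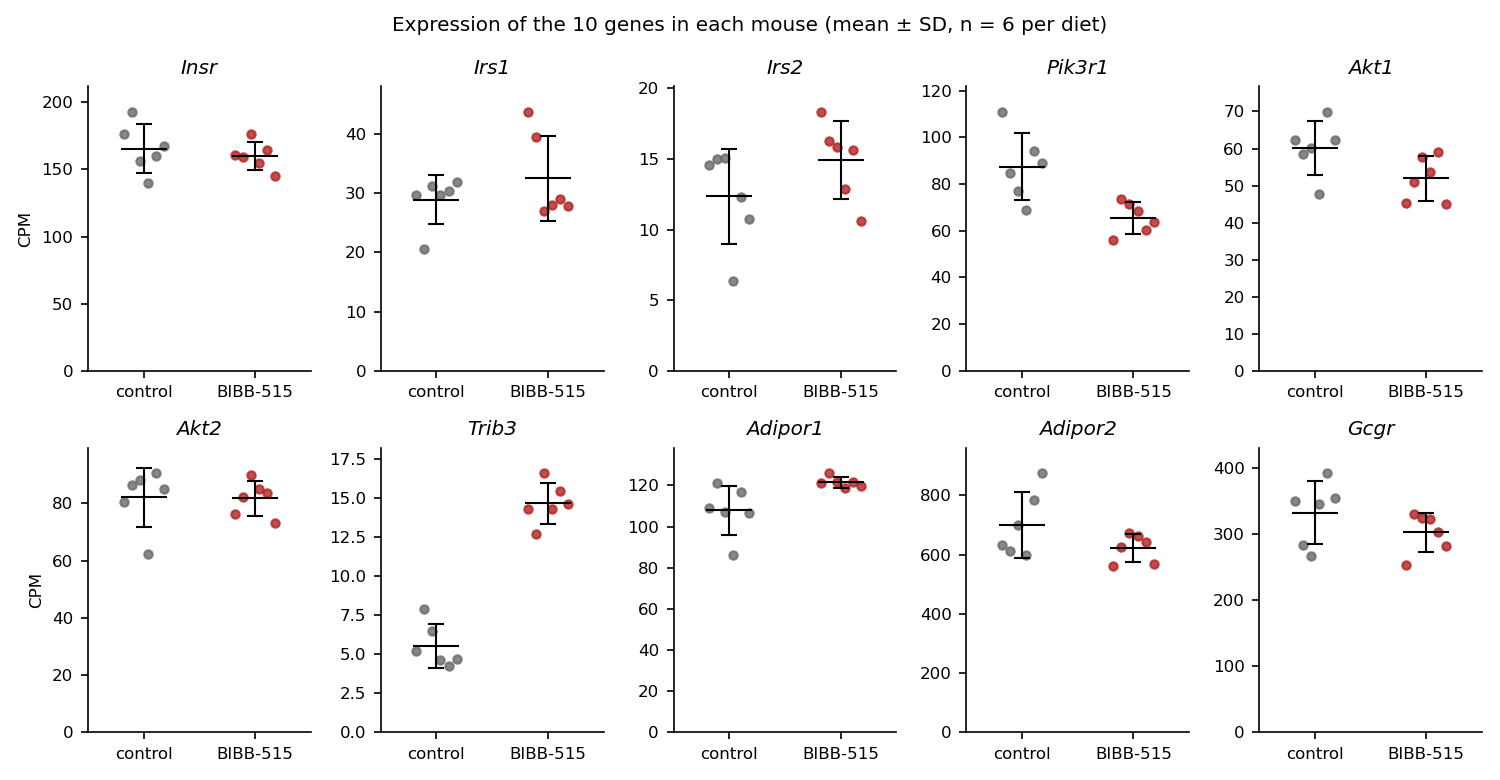
CPM of each of the 10 genes in each mouse, from 0 upward, with black bars for the mean and SD of 6 mice per diet. Trib3 is the gene whose groups are apart, with control mice up to 7.93 CPM and BIBB-515 mice from 12.7 CPM, while the control mean lies above each BIBB-515 mouse for Pik3r1, Akt1, Adipor2 and Gcgr and below each for Adipor1.

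**Figure D3:**
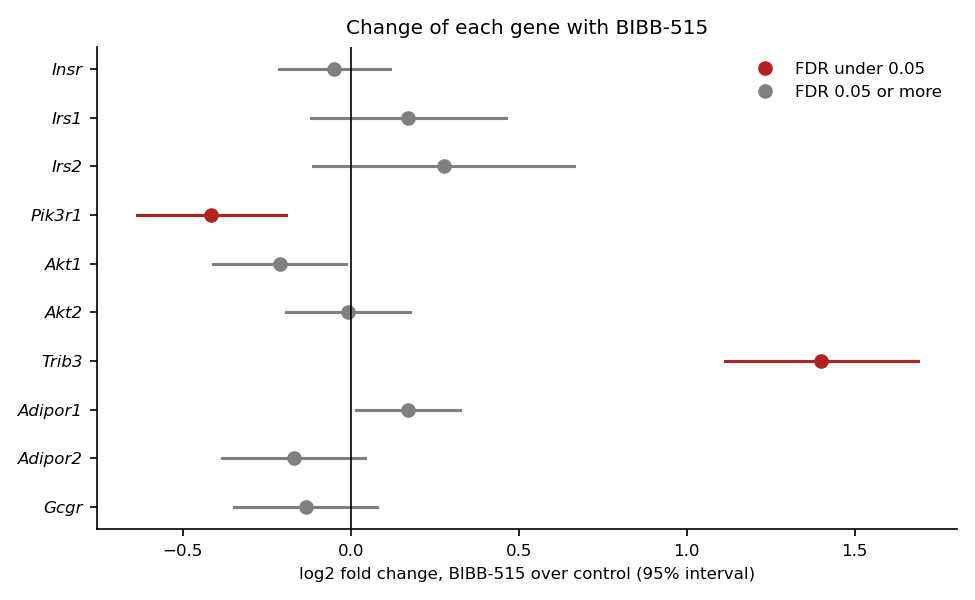
Log2 fold change of each gene, BIBB-515 over control, with its 95% interval from the fit over all genes, where red marks an FDR under 0.05. Trib3 at 1.40 and Pik3r1 at -0.41 are the red points, and the intervals of Akt1 and Adipor1 end close to 0.

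Trib3, the pseudokinase that binds Akt, lies on chromosome 2 of mm10 at chr2:152337425-152344060 on the minus strand, with 4 exons and 2051 exonic bases. In the control mice 1 to 6 it was counted at 5.22, 7.93, 6.48, 4.67, 4.25 and 4.68 CPM. In the BIBB-515 mice 6 to 11 it was counted at 14.3, 12.7, 16.6, 14.3, 15.5 and 14.7 CPM. Every BIBB-515 mouse lay above every control mouse. The mean rose from 5.54 ± 1.40 to 14.7 ± 1.30 CPM (SD, n = 6 each), a log2 fold change of 1.40 (SE 0.13, 95% interval 1.11 to 1.69, edgeR FDR 1.25e-05) or 2.64-fold. By p-value it ranked 37 among the 12481 tested genes. An exact permutation test (two-sided, 924 labelings) gave p = 0.00216, the smallest it can give. Without control mouse 4 the log2 fold change was 1.36 (FDR 5.80e-05), and without control mouse 4 and BIBB-515 mouse 11 it was 1.36 (FDR 0.000237). The gene rested on 91 to 465 reads per mouse.

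All 4 exons of Trib3 were higher with BIBB-515, and in each of them the groups did not overlap. The share of exons without overlap over all tested exons was not computed. These exons belong to the same gene in the same mice, so their agreement is not separate support. The log2 ratio of mean exon CPM ranged from 1.29 to 1.82. The first exon, which begins at the start site of the window printed above, held 6, 3, 3, 7, 1 and 2 reads in control mice 1 to 6. It held 16, 21, 17, 14, 12 and 11 reads in BIBB-515 mice 6 to 11. The last exon took 71.6% of the exon reads of the gene in control mice and 71.1% with BIBB-515.

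Pik3r1, the regulatory subunit of phosphoinositide kinase, lies at chr13:101680761-101768217 on the minus strand, with 17 exon rows and 7363 exonic bases. Control mice 1 to 6 were counted at 111, 84.9, 76.9, 68.9, 94.0 and 89.2 CPM. BIBB-515 mice 6 to 11 were counted at 55.9, 73.6, 71.6, 68.4, 60.3 and 63.9 CPM. The 6 values with BIBB-515 were all under the mean of the control mice, but control mouse 4 lay below 2 of them, so the groups overlapped at their edge. The mean fell from 87.5 ± 14.5 to 65.6 ± 6.83 CPM (SD, n = 6 each), a log2 fold change of -0.41 (SE 0.10, 95% interval -0.64 to -0.19, edgeR FDR 0.0174). The two-sided exact permutation test gave p = 0.00649. Without control mouse 4 the log2 fold change was -0.46 (FDR 0.00684), and without control mouse 4 and BIBB-515 mouse 11 it was -0.46 (FDR 0.0168).

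Pik3r1 has several start sites, and reads on its first exons were few. The first exon of the long transcript, which begins at the start in the GC-rich window above, held between 10 and 26 reads in control mice and between 6 and 28 with BIBB-515. The exon that begins at the downstream start (chr13:101692183-101692630) held between 0 and 8 reads in control mice and between 1 and 6 with BIBB-515, and was too low to be tested. All 16 tested exons were lower with BIBB-515, with log2 ratios of mean exon CPM from -1.05 to -0.19. The largest fall was in exon 7 from the 5′ end (chr13:101701447-101701526), at 0.715 CPM in control mice and 0.345 CPM with BIBB-515, without overlap. Its share of the gene's exon reads was 1.06% and 0.694% (edgeR exon usage FDR 1.00).

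Insr, the insulin receptor itself, was among the least changed of the 10 genes. It lies at chr8:3150922-3279617 on the minus strand. Control mice ranged from 139.5 to 193 CPM with a median of 164, and BIBB-515 mice from 145 to 176 with a median of 159.8. The BIBB-515 values fell within the control range. The log2 fold change was -0.05 (SE 0.08, 95% interval -0.21 to 0.12, edgeR FDR 0.717), and it lay between -0.08 and -0.00 when 1 mouse was left out.

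The docking proteins Irs1 and Irs2 pass the signal from the receptor, and neither passed the test. Irs1 (chr1:82233105-82291439, minus strand) ranged from 20.6 to 31.8 CPM in control mice with a median of 30.0 CPM, and from 27.0 to 43.7 with BIBB-515, with a median of 28.5. BIBB-515 mice 6 and 7, at 43.7 and 39.4 CPM, were higher than all others, and the remaining 4 lay between 27.0 and 29.0 CPM. Its log2 fold change was 0.17 (SE 0.14, 95% interval -0.12 to 0.46, edgeR FDR 0.431), and it was 0.09 without control mouse 2, 0.07 without BIBB-515 mouse 6 and 0.11 without BIBB-515 mouse 7. Irs2 (chr8:10986964-11008430, minus strand) ranged from 6.40 to 15.1 CPM in control mice with a median of 13.4, and from 10.6 to 18.3 with BIBB-515, with a median of 15.7. Both groups overlapped over most of their range, and control mouse 4 was the lowest. Its log2 fold change was 0.28 (SE 0.18, 95% interval -0.11 to 0.66, edgeR FDR 0.333), the widest interval among the 10 genes, and it was 0.15 (FDR 0.485) without control mouse 4, the library with the most reads on last exons. Irs2 exons overlap those of 9530052E02Rik by 162 bases, where the counts leave out reads, and tables that keep such reads hold 3.66% more for Irs2.

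Akt1 and Akt2 encode the kinases downstream of the phosphoinositide kinase, and Akt2 is the form best known for insulin action in liver. Akt1 (chr12:112653821-112674276, minus strand) ranged from 47.7 to 69.9 CPM in control mice with a median of 61.2, and from 44.9 to 59.1 with BIBB-515, with a median of 52.3. The control mean exceeded the value of all 6 mice on BIBB-515, and the groups overlapped. The log2 fold change was -0.21 (SE 0.09, 95% interval -0.41 to -0.01, edgeR FDR 0.142), and without control mouse 4 it was -0.26 with an FDR of 0.0477, the only fit among those tried in which Akt1 passed. Control mouse 4 is the library with the highest last-exon shares, Akt1 among them, and without it and BIBB-515 mouse 11 the log2 fold change of Akt1 was -0.22 with an FDR of 0.0922. Akt2 (chr7:27591560-27639453, plus strand) ranged from 62.2 to 90.4 CPM in control mice with a median of 85.8, and from 73.0 to 90.0 CPM with BIBB-515, with a median of 83.0 CPM. The BIBB-515 values lay within the control range. Its log2 fold change was -0.01 (SE 0.09, 95% interval -0.19 to 0.18, edgeR FDR 0.967), and without control mouse 4 it was -0.07 (FDR 0.504).

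Neither of the adiponectin receptors passed the FDR threshold, and their log2 fold changes were of opposite sign. Adipor1 (chr1:134415467-134432341, plus strand) ranged from 86.1 to 121 CPM in control mice with a median of 108, and from 118.6 to 126 with BIBB-515, with a median of 121. Control mouse 2 lay among the BIBB-515 mice, and the other 5 control mice lay below all of them. The log2 fold change was 0.17 (SE 0.07, 95% interval 0.02 to 0.33, edgeR p = 0.0320, FDR 0.127), while the two-sided exact permutation test, which is not adjusted over genes, gave p = 0.00649. Adipor2 (chr6:119353150-119417483, minus strand) ranged from 597 to 874 CPM in control mice with a median of 666, and from 560.4 to 673 with BIBB-515, with a median of 634. Its log2 fold change was -0.17 (SE 0.10, 95% interval -0.38 to 0.04, edgeR FDR 0.272), and without control mouse 6, the highest, it was -0.09.

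Gcgr, the glucagon receptor, lies at chr11:120530727-120538984 on the plus strand. It ranged from 267 to 392 CPM in control mice with a median of 348, and from 253 to 330.2 with BIBB-515, with a median of 313. The groups overlapped, with 4 control mice above all BIBB-515 mice and the other 2 within their range. The log2 fold change was -0.13 (SE 0.10, 95% interval -0.35 to 0.08, edgeR FDR 0.397), and it was -0.07 without control mouse 5 and -0.09 without BIBB-515 mouse 6.

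A ratio of 2 genes in the same library does not depend on how the library is scaled, so 4 such ratios were compared between diets. The ratio of Akt2 to Akt1 was higher with BIBB-515, at a mean log2 ratio of 0.66 ± 0.08 against 0.45 ± 0.09 in control mice (SD, n = 6 each), a difference of 0.21 (SE 0.05, two-sided exact permutation p = 0.00649, adjusted over the 4 ratios 0.0260). The ratio exceeded its control mean in 6 of 6 mice on BIBB-515, and the ranges, 0.37 to 0.56 and 0.50 to 0.75, overlapped. The ratio of Adipor2 to Adipor1 was lower with BIBB-515, at 2.35 ± 0.11 against 2.69 ± 0.24, a difference of -0.34 (SE 0.11, exact permutation p = 0.0130, adjusted 0.0260). The ratio was under its control mean in 6 of 6 mice on BIBB-515. Without control mouse 4 the differences were 0.20 (adjusted p = 0.0346, exact permutation) and -0.32 (adjusted p = 0.0390). Without control mouse 4 and BIBB-515 mouse 11, the libraries with the most reads on last exons, they were 0.19 and -0.30, and neither passed (adjusted p = 0.0952 each, exact permutation).

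The other ratios did not pass. The ratio of Irs2 to Irs1 differed by 0.15 on the log2 scale (SE 0.26, exact permutation p = 0.597, adjusted 0.597). The ratio of Insr to Gcgr, the receptors of the opposing hormones, differed by 0.08 (SE 0.14, exact permutation p = 0.532, adjusted 0.597). A ratio shows unequal change of its genes and not which of them changed.

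**Figure D4:**
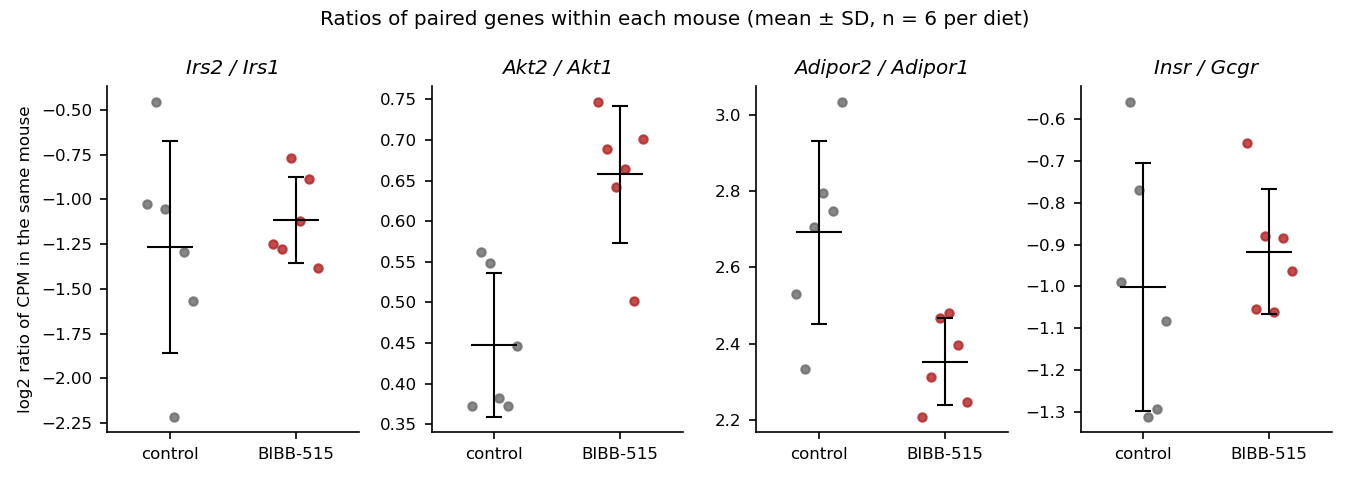
Log2 ratio of CPM of paired genes in the same mouse, with black bars for the mean and SD of 6 mice per diet; the axes do not start at 0. The Akt2 to Akt1 ratio lies higher and the Adipor2 to Adipor1 ratio lower with BIBB-515, with ranges that overlap. Each had an adjusted p of 0.0260 in the exact permutation test, and 0.0952 without control mouse 4 and BIBB-515 mouse 11. Irs2 to Irs1 and Insr to Gcgr overlap widely.

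Exon usage, the share of a gene's reads on each exon, was tested over the whole exon tables. None of the 10 genes passed in either edgeR or limma, and of their 103 tested exons 1 had an unadjusted p under 0.05 with each tool. The background was as low, with 0.00769% of 104017 exons and 0.085% of 10588 genes past an FDR of 0.05, and 1.44% of exons at an unadjusted p under 0.05. In direction, the exons followed the gene. All 14 tested exons of Akt1 and all 8 of Adipor2 were lower with BIBB-515, all 8 of Adipor1 were higher, 13 of 14 of Gcgr were lower, and those of Insr (8 higher, 13 lower) and Akt2 (6 higher, 8 lower) were mixed. The Akt1 exons at chr12:112653821-112654727 and chr12:112653821-112654777 overlap. Exons of a gene come from the same mice, so these counts restate the change of the gene and are not separate support.

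Correlations between mice of the same diet were described for the 10 genes. The same values over all pairs of genes were not computed, so these are not a trait of this set. Over the 45 pairs, after removal of the diet means from log2 CPM, 33 correlations were positive and the median Pearson's r was 0.35. None passed an adjusted p of 0.05 in permutations within diets, and 9 had an unadjusted p under 0.05. The pair with the highest r was Akt1 and Akt2, with r = 0.87 (permutation p = 0.00138, adjusted 0.0621) and Spearman's rho = 0.71 (permutation p = 0.0137, adjusted 0.269). Without the 2 mice farthest from the median r was 0.70, and within control and BIBB-515 mice it was 0.90 each. Leaving out 2 mice in this way changed other pairs with an unadjusted permutation p under 0.05. The r went from 0.73 to -0.26 for Irs2 and Akt2 and from 0.73 to 0.05 for Insr and Adipor1. For Akt1 and Adipor2 it went from 0.70 to 0.58.

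The genes whose levels followed Trib3 and Pik3r1 from mouse to mouse were taken as the 3 with the highest Pearson's r over 12 mice after removal of diet means, among 11168 genes with enough reads. For Trib3 these were Angel1 with r = 0.92, Abcb1a, which encodes a drug efflux pump, with r = 0.89, and Sesn2, a stress-responsive inhibitor of mTORC1, with r = 0.88. For Pik3r1 these were Apol7a with r = 0.94, Rtn4ip1 with r = 0.92 and Pex11g, a peroxisomal gene, with r = 0.91. As the highest of many values these are descriptions, and the values of a mouse come from the same library and share its depth. Without the 2 farthest mice they lay between 0.77 and 0.93.

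The other genes of the pathway were read from the same fit, in 8 lists of 158 genes of which 148 were tested. Of these, 6 were higher and 9 lower with BIBB-515, or 10.1% against the 13.7% of all tested genes, and their median log2 fold change was -0.05.

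**Figure D5:**
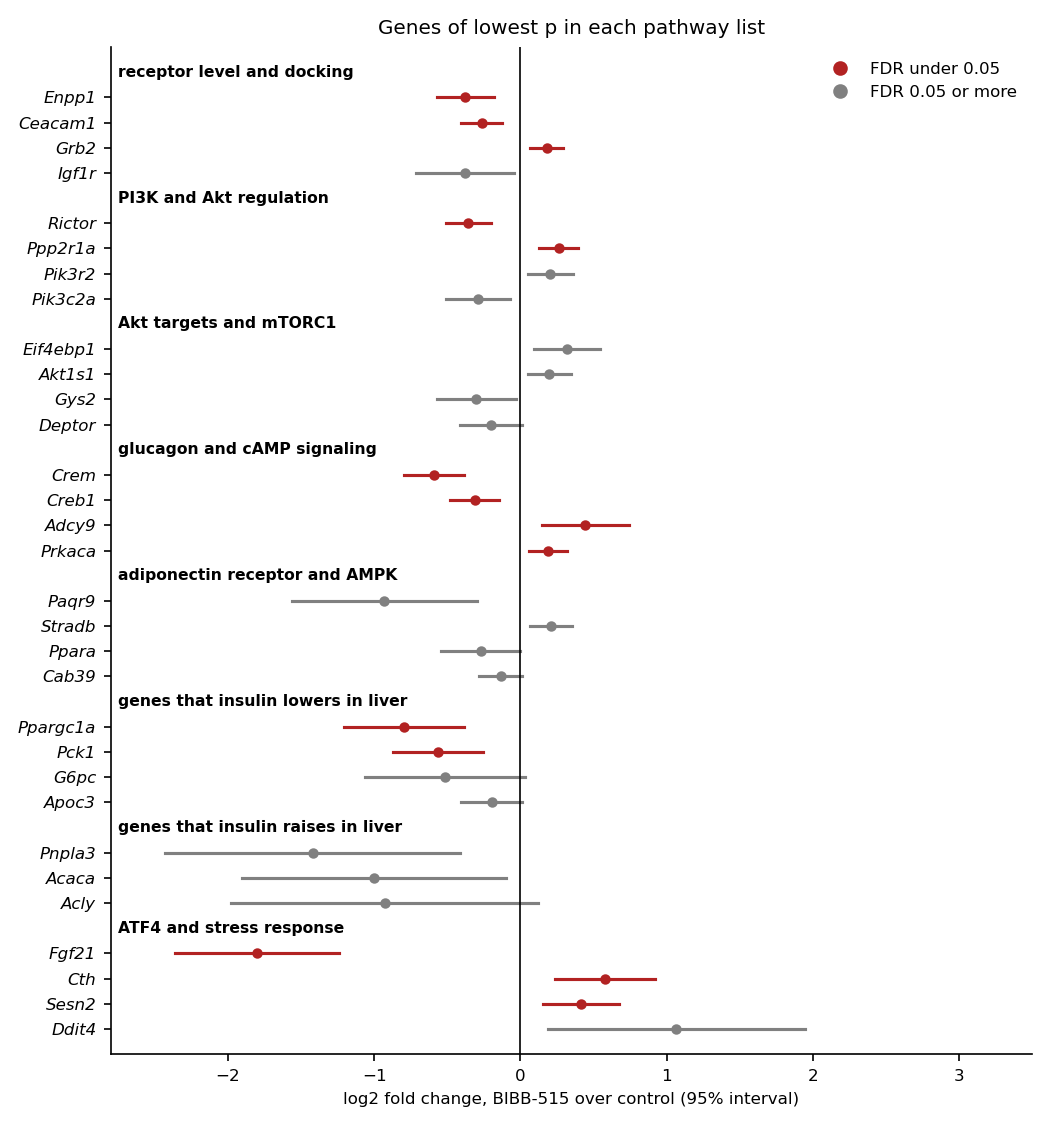
Log2 fold change with its 95% interval for genes of lowest p, up to 4 in each of the 8 pathway lists, BIBB-515 over control, where red marks an FDR under 0.05. Of the 31 genes shown 14 are red, 8 to the left of 0 and 6 to the right, with Fgf21 at -1.80 the farthest from 0.

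Among genes that set receptor level and docking, 1 of 21 tested was higher and 2 were lower, with a median log2 fold change of -0.08. Enpp1, a membrane protein that binds the insulin receptor, fell from 28.0 ± 4.18 to 21.6 ± 1.23 CPM (SD, n = 6 each, log2 fold change -0.38, SE 0.09, edgeR FDR 0.0156). Ceacam1, which takes part in hepatic insulin clearance, fell from 134 ± 7.47 to 111 ± 9.34 CPM (log2 fold change -0.26, SE 0.07, FDR 0.0165). Grb2, an adaptor to the Ras pathway, rose from 42.4 ± 1.87 to 48.0 ± 2.30 CPM without overlap (log2 fold change 0.18, FDR 0.0349), and was called in 6 of 12 fits that each left out 1 mouse. Igf1r, the receptor of a related hormone, had a log2 fold change of -0.38 (FDR 0.121) at 4.37 CPM in control mice.

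Among regulators of phosphoinositide kinase and Akt, 1 of 23 was higher and 1 lower, with a median of 0.02. Rictor, the defining subunit of the mTOR complex that phosphorylates Akt, fell from 30.8 ± 3.40 to 24.1 ± 0.872 CPM without overlap (log2 fold change -0.36, SE 0.07, edgeR FDR 0.00480). Ppp2r1a, the scaffold of a phosphatase that acts on Akt, rose from 81.3 ± 6.31 to 97.5 ± 5.09 CPM (log2 fold change 0.26, SE 0.06, FDR 0.0128). Pik3r2, the paralog of Pik3r1, had a log2 fold change of 0.21 (SE 0.07, FDR 0.0689), higher than the control mean in 6 of 6 mice, and Pik3c2a, a kinase of another class, had one of -0.29 (FDR 0.0752).

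None of the 25 tested Akt targets and mTORC1 genes passed in the main edgeR test, where 3 had an unadjusted p under 0.05. In other fits 2 passed with DESeq2 and 2 with 1 surrogate variable as covariate. When a mouse was left out, 0 to 2 passed, the 2 without control mouse 4. The lowest p belonged to Eif4ebp1, a repressor of translation, with a log2 fold change of 0.32 (edgeR FDR 0.0557). Akt1s1, an Akt substrate in mTORC1, had 0.20 (FDR 0.0686). Gys2, the hepatic glycogen synthase, had -0.30 (FDR 0.125), and Deptor, an inhibitor of mTOR, had -0.20 (FDR 0.195).

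In the glucagon and cAMP list, 2 of 27 tested genes were higher and 2 lower, with a median of -0.06. Crem, a cAMP-responsive transcription factor, fell from 21.2 ± 2.80 to 14.1 ± 1.56 CPM without overlap (SD, n = 6 each, log2 fold change -0.59, SE 0.10, edgeR FDR 0.00112). Creb1, the related activator, fell from 17.1 ± 1.92 to 13.8 ± 0.900 CPM (log2 fold change -0.31, SE 0.08, FDR 0.0174). Adcy9, an adenylyl cyclase, and Prkaca, the catalytic subunit of protein kinase A, rose by log2 fold changes of 0.44 (FDR 0.0479) and 0.19 (FDR 0.0489), and each was called in 2 of 12 fits that left out 1 mouse.

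Of the 20 tested genes around the adiponectin receptors and AMPK, 3 had an unadjusted p under 0.05 in the main edgeR test and none passed. The count of genes that passed rested on the setting. It was 2 with DESeq2 and with 1 surrogate variable, 1 in each of the other 6 settings, and from 0 to 3 when a mouse was left out, the 3 without control mouse 3. Stradb was called in 6 of these 8 settings and Paqr9 in 4. Paqr9, of the same family as the adiponectin receptors, had the lowest p, with a log2 fold change of -0.93 (SE 0.30, edgeR FDR 0.0502) and control values from 114 to 402 CPM. Stradb, a partner of the kinase upstream of AMPK, had 0.21 (FDR 0.0506), Ppara, the nuclear receptor of fatty acid oxidation, -0.27 (FDR 0.164) and Cab39, another partner of that kinase, -0.13 (FDR 0.215).

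Genes that insulin is known to lower in liver and genes that it is known to raise both had medians below 0, at -0.47 and -0.71, over 8 genes each. Among the former 2 were lower and none higher. Ppargc1a, a coactivator of gluconeogenesis, fell from 24.7 ± 9.29 to 14.3 ± 2.31 CPM (SD, n = 6 each, log2 fold change -0.79, SE 0.19, edgeR FDR 0.0139), and Pck1, a rate-controlling gluconeogenic enzyme, fell by 0.56 on the log2 scale (SE 0.14, FDR 0.0188). G6pc, which releases free glucose, had -0.51 (FDR 0.194) and Apoc3, an inhibitor of lipoprotein clearance, -0.20 (FDR 0.195). By quantitative PCR of liver the study reports higher Pck1 and G6pc with BIBB-515, opposite in direction to these counts. The cause of this difference was not tested. Among the genes that insulin raises, 3 lipogenic genes were spread widely between control mice, Acly from 276 to 3085 CPM. These were Pnpla3 (log2 fold change -1.42, FDR 0.0594), Acaca (392 CPM in control mice and 196 CPM with BIBB-515, FDR 0.127) and Acly (log2 fold change -0.93, FDR 0.224). Their values depended on the setting and on control mouse 3. With 1 surrogate variable as covariate all 3 passed, at -1.11 for Pnpla3 (FDR 0.00252), -0.67 for Acaca (FDR 0.00245) and -0.51 for Acly (FDR 0.00424), and Pnpla3 passed with DESeq2 (FDR 0.0468) and without control mouse 2 or 5. With limma-voom the log2 fold changes were -1.03, -0.66 and -0.52, and without control mouse 3 they were -0.88, -0.35 and -0.18, none of them called.

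Trib3 is a known target of ATF4, and 16 other genes of the ATF4 and stress response were tested. Of these 2 were higher and 1 lower, with a median of -0.03. Fgf21, a hepatic hormone of fasting and stress, fell from 11.5 ± 4.83 to 3.28 ± 0.875 CPM without overlap (SD, n = 6 each, log2 fold change -1.80, SE 0.26, edgeR FDR 0.000508), opposite in direction to Trib3. Cth, an enzyme of cysteine synthesis, rose from 194 ± 60.1 to 289.9 ± 26.9 CPM (log2 fold change 0.58, SE 0.16, FDR 0.0286), and Sesn2 rose from 8.57 ± 1.78 to 11.4 ± 1.12 CPM (log2 fold change 0.42, SE 0.12, FDR 0.0351). Cth was called in 9 and Sesn2 in 3 of 12 fits that left out 1 mouse. Ddit4, an inhibitor of mTORC1, had a log2 fold change of 1.07 (FDR 0.0966), with BIBB-515 values from 12.1 to 65.6 CPM, and 0.64 without BIBB-515 mouse 11. Without control mouse 4 and BIBB-515 mouse 11, Fgf21 was called (FDR 0.00541) while Cth (FDR 0.0908) and Sesn2 (FDR 0.0860) were not.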

How the data were processed

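For each mouse the authors deposited whole-number counts of reads per gene and per exon, made, per the file headers, with featureCounts of Subread 1.6.3 on mm10 with a UCSC annotation, with no strand option, multi-mapping reads and reads on overlapping genes being left out. The submitters' processing notes also name STAR 2.5.3a. Library preparation is not given in the sources used here. Transcript tables were not used. Without strand, reads of a gene and of an antisense partner cannot be told apart.

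Diets were compared in edgeR 4.0.16 (R 4.3.3) by its quasi-likelihood test after TMM normalization, for genes that reached 1 CPM in 2 or more libraries. No covariates were used, and the Benjamini-Hochberg adjustment covered all tested genes. The filter follows the study's methods for human tissue, while the test for the mouse libraries is not stated there. Log2 CPM used a prior count of 0.5. Single values were compared with exact permutation tests, and correlations with 100000 permutations within diets. Exon usage was tested with diffSpliceDGE on exons with at least 10 reads in at least 6 samples. Both tests were run on simulated data that gave all genes, or all exons, the same variation between mice. Exon changes were placed there only in exons with many reads, so exons with few reads were not examined. Alternatives were DESeq2 1.42.0, limma 3.58.1, sva 3.50.0, other normalizations and filters, tables of primary alignments, and leaving out each mouse. Leaving out the 2 libraries with the highest last-exon share together was added after seeing the data.

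Named genes were the 10 genes, the 4 of lowest p in each pathway list, and the 3 genes most like each called gene. Of these, 1 is not reported here, although it stays in the counts. The genes and lists were chosen with earlier results of these data known. P-values for the diets set the difference between groups against the variation between these mice, and do not measure that variation.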

Additional observations from a re-analysis of the deposited data

Results flagged for a closer look

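For each of the 10 genes in each diet, and for the other values by group, the gap of the most extreme mouse to its nearest neighbor was compared with the range of its group of 6. Of 30 groups examined 2 had a mouse beyond the limit, where chance gives about 1.5. Irs1 in control mouse 2 was the lowest, at 20.6 CPM against 29.6 CPM in the next mouse, a gap of 0.803 of the range. Akt2 in control mouse 4 was the lowest, at 62.2 CPM against 80.5 CPM, a gap of 0.649 of the range, and this library also had the highest last-exon shares, whose part in it was not tested. Without control mouse 2 or 4, neither Irs1 nor Akt2 passed the test between diets.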

How the results depend on the processing

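No paired analysis was possible because the groups share only 1 replicate number, which marks different mice. Trib3 and Pik3r1 were called under each of the 8 other settings and in each of the 12 fits that left out 1 mouse, where their log2 fold changes lay from 1.34 to 1.53 and from -0.46 to -0.34, with FDRs of Pik3r1 up to 0.0442. No other of the 10 genes was called in any of these, except Akt1 without control mouse 4. The genes called in the pathway lists, 15 in the main test, were 23 with DESeq2 and 26 with 1 surrogate variable, and from 10 to 19 when a mouse was left out. The 1705 genes called in all ranged from 1199 to 1865 when a mouse was left out, and were 2244 with DESeq2 and 2407 with 1 surrogate variable. The cause was not tested. Grb2 was not called without control mouse 1 or BIBB-515 mice 6, 7, 8, 9 or 11 (FDR up to 0.0774). Cth was not called without control mouse 6 or BIBB-515 mice 6 or 11 (up to 0.0607). When a mouse was left out, Adcy9 was called only without control mice 2 or 3 (FDR up to 0.0927), Prkaca only without control mice 1 or 3 (up to 0.103) and Sesn2 only without control mice 2 or 3 or BIBB-515 mouse 7 (up to 0.0759). Both ratios that differed between diets did so in each fit that left out 1 mouse, with differences from 0.19 to 0.24 for Akt2 to Akt1 and from -0.41 to -0.27 for Adipor2 to Adipor1. In a fit chosen after seeing the data, which left out control mouse 4 and BIBB-515 mouse 11 together, the libraries with the most reads on last exons, neither ratio passed, at 0.19 and -0.30, while Trib3 and Pik3r1 alone of the 10 genes were called, with 11 pathway genes and 1177 genes in all. None of the called values changed direction. The difference in Irs2 to Irs1, which was not called, ranged from -0.04 to 0.31 when a mouse was left out, and the log2 fold change of Akt2 from -0.07 to 0.03. Depth limits the first exons of Pik3r1 and Trib3, with at most 28 reads per mouse.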

Other observations

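Control mouse 4 had the lowest CPM of the control group for 7 of the 10 genes (Insr, Irs2, Pik3r1, Akt1, Akt2, Adipor1 and Adipor2), while among all tested genes it was the lowest of the control group for 21.5%. The same library had the highest last-exon share of all 12 mice for 48.6% of 9539 genes, against 18.0% in BIBB-515 mouse 11 and at most 14.1% in the other mice. The last exon held 77.8% of the exon reads of Insr in control mouse 4 and 62.3% to 71.2% in the other control mice, 75.2% against 63.3% to 71.6% for Pik3r1, 40.9% against 29.4% to 33.5% for Adipor1, and 87.4% against 72.4% to 79.4% for Adipor2. The part of these shares in the low counts was not tested. The coefficient of variation between mice was lower with BIBB-515 than in control mice for 9 of the 10 genes, all but Irs1, and for 77.8% of all tested genes. For Adipor1 it was 11.2% in control mice and 2.05% with BIBB-515.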
